A study of Arabidopsis thaliana with 8 samples.

Results

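The genes described here are 10 Arabidopsis thaliana genes known from leaf senescence and cell death, chosen by locus from a gene table of 37336 genes: NAC6 (also called ORE1), NAP, SGR1, SEN1, SAG12, SAG13, SAG21, DIN2, PGAZAT and KTI1. They were grouped under the working name of senescence genes raised with pat1-1, from values of the pat1-1 single mutant against its control, so those values are given as a description with no test. The name held for only some of them. In pat1-1, 8 of the 10 had a positive log2 fold change and 2, the regulators NAC6 and NAP, a negative one. Library values of pat1-1 and control did not overlap for 6 genes, all higher, a state found in 18.0% of all 20346 genes tested (19.8% were apart and lower). Those 6 were SAG12, SAG13, SAG21, DIN2, PGAZAT and KTI1, with log2 fold changes in pat1-1 of 6.41, 2.11, 1.12, 5.50, 8.45 and 4.01. The other 4, whose libraries overlapped, were SGR1 (0.27), SEN1 (0.35), NAC6 (-0.46) and NAP (-0.42).

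RNA was sequenced from above-ground tissue of plants grown for 6 weeks at 21 °C with 8 h of light and 16 h of dark, with 3 biological replicate libraries in each of 8 genotypes. All 8 genotypes carry summ2-8, a mutation of the immune receptor gene SUMM2, and summ2-8 alone is called the control. The other 7 are summ2-8 with pat1-1, path1-4 or path2-1 singly, with pat1-1path1-4, pat1-1path2-1 or path1-4path2-1, and with pat1-1path1-4path2-1, called the triple combination. PAT1, PATH1 and PATH2 are the plant members of the PAT1 family, proteins that activate removal of the mRNA cap ahead of decay, and the study asked which genes affect the developmental programs that these proteins regulate. Libraries held 14187145 to 39180748 counts. Over the 12 libraries with pat1-1 the PAT1 locus AT1G79090 was at 27 to 43.3 CPM (counts scaled to a common library size) against 43.4 to 59.3 in the 12 without it. The PATH1 locus AT3G22270 was at 44.6 to 61.9 CPM with path1-4 and 57.9 to 89.4 without, and the PATH2 locus AT4G14990 at 82.2 to 109 CPM with path2-1 and 69.6 to 98.8 without. Counts of these loci thus were lower with pat1-1, mostly lower with path1-4 and not lower with path2-1, and none was lost. SUMM2 (AT1G12280) was at 2.98 to 6.68 CPM in all 24 libraries. The labels name the alleles and do not say what each does to the transcript, whether a library is 1 plant or a pool, or which of the 2 pot sizes a genotype had. Green tissue markers summed to 30200 to 55200 CPM in every library.

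Leaf senescence is the ordered dismantling of a leaf, in which transcription factors of the NAC family switch on genes that break down chlorophyll, proteins and other contents for export to growing organs. Age, darkness, sugar starvation, ethylene, abscisic acid and salicylic acid all feed into it, and some of its marker genes respond mainly to 1 of these inputs. NAC6 and NAP are such transcription factors. SGR1, the STAY-GREEN magnesium dechelatase, starts chlorophyll breakdown. SEN1 and DIN2 are induced by darkness and low sugar, SAG12 encodes a cysteine protease of senescing leaves, and SAG13 and SAG21 respond to senescence and oxidative stress. PGAZAT encodes a polygalacturonase that loosens pectin in abscission, and KTI1 a Kunitz trypsin inhibitor that restrains cell death after infection.

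Genome positions are RefSeq TAIR10.1. NAC6 (AT5G39610) lies at chr5:15858398-15859911, NAP (AT1G69490) at chr1:26122080-26123514, SGR1 (AT4G22920) at chr4:12016420-12018643, SEN1 (AT4G35770) at chr4:16944878-16946266 and SAG12 (AT5G45890) at chr5:18613239-18614963. SAG13 (AT2G29350) lies at chr2:12600914-12602556, SAG21 (AT4G02380) at chr4:1046042-1047105, DIN2 (AT3G60140) at chr3:22216540-22220824, PGAZAT (AT2G41850) at chr2:17461655-17464242 and KTI1 (AT1G73260) at chr1:27547098-27548282. All 10 are protein-coding, with 1 exon in KTI1 and up to 12 in DIN2. SAG21 overlaps AT4G04125 on the same strand, so how its reads were shared out is uncertain. The closest copy of any member transcript was a stretch of 209 bases of SAG13 at 94.3% identity to AT2G29150, and the best stretches of the others were at 75.2 to 86.2% (KTI1 had none).

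The sequences shown are those directly before the annotated start of the 4 genes whose calls below held in every setting tried for at least 1 comparison. For PGAZAT that call is limited, as the gene passed the filter on low counts only through the libraries where it is high. They are printed from RefSeq TAIR10.1 in the direction of transcription, with the last base next to the gene, and capitals mark motif matches. NAC6 is chr5:15859912-15860211 on the minus strand, NAP is chr1:26121780-26122079 on the plus strand, SEN1 is chr4:16944678-16944877 on the plus strand and PGAZAT is chr2:17464243-17464542 on the minus strand. The SEN1 stretch ends after 200 bases at the neighbouring gene AT4G35760.
NAC6: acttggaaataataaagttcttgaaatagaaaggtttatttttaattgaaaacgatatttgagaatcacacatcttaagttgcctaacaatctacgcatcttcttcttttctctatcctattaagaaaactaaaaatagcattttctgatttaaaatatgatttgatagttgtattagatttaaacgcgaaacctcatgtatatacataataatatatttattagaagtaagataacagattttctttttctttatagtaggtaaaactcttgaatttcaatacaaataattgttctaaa
NAP: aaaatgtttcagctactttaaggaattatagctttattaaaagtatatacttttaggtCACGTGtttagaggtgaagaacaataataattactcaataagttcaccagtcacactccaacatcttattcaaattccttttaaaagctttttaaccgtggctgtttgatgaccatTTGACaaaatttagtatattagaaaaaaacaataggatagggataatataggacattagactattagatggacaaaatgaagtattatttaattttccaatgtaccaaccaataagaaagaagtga
SEN1: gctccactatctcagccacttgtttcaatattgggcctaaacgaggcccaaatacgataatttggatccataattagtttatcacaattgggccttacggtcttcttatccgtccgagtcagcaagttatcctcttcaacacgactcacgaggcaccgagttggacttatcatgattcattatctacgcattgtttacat
PGAZAT: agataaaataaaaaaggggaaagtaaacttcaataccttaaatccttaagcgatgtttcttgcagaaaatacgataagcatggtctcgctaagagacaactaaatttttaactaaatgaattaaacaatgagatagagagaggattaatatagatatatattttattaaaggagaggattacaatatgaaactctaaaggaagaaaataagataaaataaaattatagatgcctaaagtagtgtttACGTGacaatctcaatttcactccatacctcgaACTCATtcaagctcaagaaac

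A set of 6 motifs was searched on both strands of the 300 bases before each gene, and in the same window before 27443 genes. The G-box CACGTG, the abscisic acid response core ACGTG that it contains, the WRKY factor core TTGAC and the bZIP element ACTCAT stood in 7.09%, 25.6%, 50.4% and 14.8% of all windows. The NAC factor spacings, CGT and ACG with 6 or 7 bases between them, stood in 1.79% and 2.53%. Among the 10 members they stood in 1, 4, 5, 1, 1 and 0 windows in that order. NAP held the G-box 242 bases before its start and TTGAC at 126 bases. PGAZAT held ACGTG at 54 bases and ACTCAT at 21 bases. The windows of NAC6 and SEN1 held none of the 6. A match is a run of letters and says nothing on binding.

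The transcription factor gene NAC6 was called lower when pat1-1 was added to path2-1 or to path1-4path2-1, and NAP when it was added to path2-1. These 3 additions of pat1-1 (to path1-4, to path2-1 and to path1-4path2-1) share no library with pat1-1 against the control. That comparison gave the genes their working name. The genes were chosen with earlier results of these data known, so independence of these tests from the choice is not shown. A gene is called changed where edgeR's quasi-likelihood test gave an adjusted p below 0.05 over all genes tested, and changes are log2 fold changes ± SE. Values are CPM, with TMM scaling for library composition, in the order of replicates 1 to 3. NAC6 was at 82.8, 65.1 and 63.0 CPM in the control and 47.3, 42.5 and 63.7 in pat1-1. NAC6 was at 58.3, 50.1 and 78.9 CPM in path2-1 and 22.8, 19.1 and 26.6 in pat1-1path2-1. The pat1-1path2-1 libraries all lay far below every path2-1 library, while control and pat1-1 overlapped in 1 pair of libraries. Adding pat1-1 to path2-1 changed NAC6 by a log2 fold change of -1.45 ± 0.19 (SE, 2.74-fold lower, edgeR adjusted p = 1e-05). NAC6 was at 33.4, 26.8 and 34.4 CPM in path1-4path2-1 while the triple combination had 26.6, 20.3 and 19.6, a change of -0.52 ± 0.19 (1.43-fold lower, edgeR adjusted p = 0.0308) whose groups are separated by a small gap. That call was lost without path1-4path2-1 replicate 1 (-0.48, edgeR adjusted p = 0.08) or 3 (-0.45, 0.101) and without triple replicate 2 (-0.46, 0.0995) or 3 (-0.43, 0.113). In path1-4 NAC6 was at 39.2, 48.0 and 59.3 CPM and in pat1-1path1-4 at 39.2, 34.5 and 30.3, a difference of -0.49 ± 0.19 that did not pass (edgeR adjusted p = 0.0673) and passed without path1-4 replicate 1 (-0.64, 0.0279). The pat1-1 effects on NAC6 in path1-4path2-1 and in path1-4 were not called different (-0.02 ± 0.27, edgeR adjusted p = 0.97). The call in 1 and not the other therefore does not set these 2 backgrounds apart. In bulk tissue a lower value can be fewer cells with the transcript or less of it per cell, and these cannot be told apart.

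NAC6 was also lower with path1-4 and path2-1 together and no pat1-1. Against the control, path1-4path2-1 changed it by -1.15 ± 0.19 (edgeR adjusted p = 0.000241), with all 3 libraries below all 3 controls. Adding path2-1 to pat1-1path1-4 gave -0.64 ± 0.19 (edgeR adjusted p = 0.025), a call lost without pat1-1path1-4 replicate 1 (-0.55, 0.1) or 2 (-0.65, 0.057) or triple replicate 2 (-0.58, 0.0895) or 3 (-0.56, 0.0978). From highest to lowest mean the order was control (70.3 ± 10.9 CPM, SD), path2-1 (62.4 ± 14.9), pat1-1 (51.2 ± 11.1), path1-4 (48.8 ± 10.1), pat1-1path1-4 (34.7 ± 4.47), path1-4path2-1 (31.6 ± 4.12), pat1-1path2-1 (22.8 ± 3.78) and the triple combination (22.2 ± 3.87), each with n = 3. The 3 doubles and the triple combination held the lowest means. The only neighbours in this order whose libraries did not overlap were path1-4path2-1 and pat1-1path2-1.

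NAP followed a like course at a higher level. It was at 159, 121 and 128 CPM in the control and 82.7, 93.4 and 129 in pat1-1. It was at 121, 105 and 155 CPM in path2-1 and 72.4, 62.3 and 75.1 in pat1-1path2-1, with no overlap and a change of -0.86 ± 0.21 (edgeR adjusted p = 0.00355). Adding pat1-1 to path1-4 (-0.52 ± 0.21, edgeR adjusted p = 0.0898) and to path1-4path2-1 (-0.39 ± 0.21, 0.133) gave no call. The first passed without path1-4 replicate 1 (-0.67, edgeR adjusted p = 0.0434) and the second without triple replicate 1 (-0.67, 0.0152). The pat1-1 effect on NAP in path1-4path2-1 differed by 0.12 ± 0.30 from that in path1-4 and by 0.46 ± 0.30 from that in path2-1. The effect in path2-1 less that in path1-4 was -0.34 ± 0.30. None of these differences was called (edgeR adjusted p = 0.834, 0.236 and 0.488). No 2 neighbours in the order of NAP means were apart, and the means ran from 136 ± 20.5 CPM in the control to 69.9 ± 6.76 in pat1-1path2-1. Over the 24 libraries the log2 CPM of NAC6 and NAP correlated at r = 0.90 (rho = 0.88), libraries of 1 genotype included.

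SGR1 moved little in any genotype. Its means ran only from 36.7 ± 2.58 CPM in pat1-1path2-1 to 50.5 ± 7.40 in path2-1. The path2-1 libraries were at 50, 43.3 and 58.1 CPM and the pat1-1path2-1 libraries at 34.4, 36.1 and 39.5. These groups were apart, and the change of -0.46 ± 0.20 did not pass in the fit of all libraries (edgeR adjusted p = 0.0763) but did in a fit of those genotypes alone (-0.47, 0.00547). SGR1 was 0.02 ± 0.20 with pat1-1 added to path1-4 and -0.20 ± 0.20 with it added to path1-4path2-1, neither called (edgeR adjusted p = 0.955 and 0.415). The second passed without triple replicate 1 (-0.49, edgeR adjusted p = 0.0442).

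**Figure D1:**
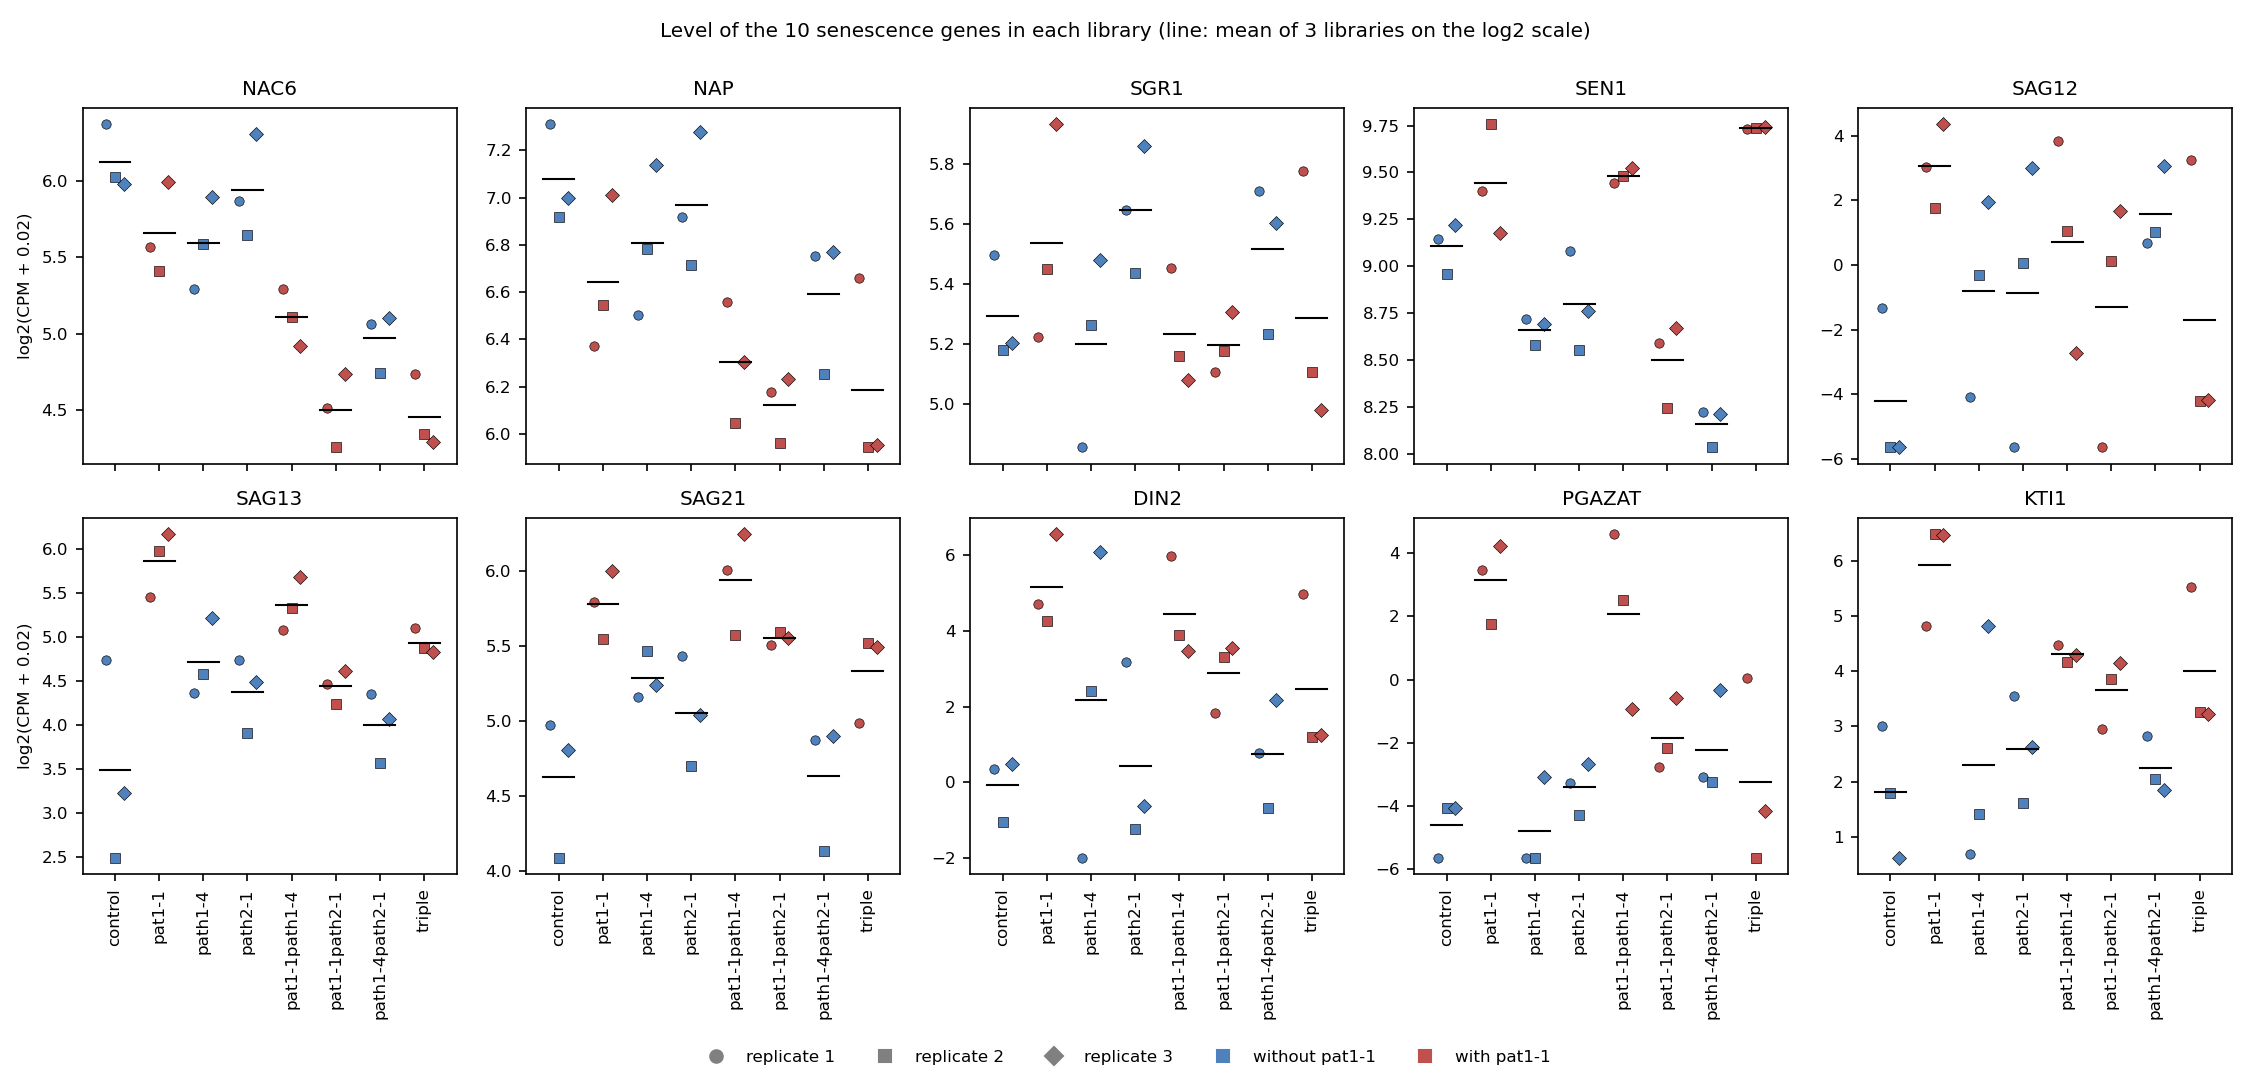
Level of each of the 10 genes as log2(CPM + 0.02) on the vertical axis, 1 panel per gene with its own range, in the 8 genotypes on the horizontal axis (triple is the triple combination). Each point is 1 library, each line the mean of 3, and red marks genotypes with pat1-1. NAC6 falls from 70.3 CPM in the control to 22.2 in the triple combination, SEN1 is lowest in path1-4path2-1 at 285 CPM and highest in the triple combination at 854, and SAG12, DIN2 and PGAZAT spread widely within genotypes.

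The effect of pat1-1 on SEN1, a gene switched on by darkness, depended on which other mutations were present. In CPM it was at 566, 497 and 596 in the control and 675, 867 and 579 in pat1-1, which overlap. It was at 421, 382 and 413 in path1-4 and 697, 715 and 736 in pat1-1path1-4, a change of 0.82 ± 0.13 (1.77-fold, edgeR adjusted p = 0.0002). It was at 299, 262 and 296 in path1-4path2-1 while the triple combination had 851, 853 and 857. Both pairs of groups lay wide apart, and the second change was 1.58 ± 0.14 (2.99-fold, edgeR adjusted p = 1.16e-08). Against path2-1, however, with 541, 375 and 434 CPM, pat1-1path2-1 was at 385, 303 and 407 and the groups overlapped. That change was -0.30 ± 0.13 and was not called (edgeR adjusted p = 0.0787), except without path2-1 replicate 2 (-0.42, 0.0243).

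The effect of pat1-1 on SEN1 therefore differed between backgrounds, and each of the 3 differences passed its own test. It was larger in path1-4path2-1 than in path2-1 by 1.88 ± 0.19 (edgeR adjusted p = 2.43e-07) and larger than in path1-4 by 0.76 ± 0.19 (0.0113), and it was smaller in path2-1 than in path1-4 by a difference of -1.12 ± 0.19 (0.000613). Without pat1-1, path1-4path2-1 was below the control by -0.95 ± 0.13 (1.94-fold lower, edgeR adjusted p = 5.56e-05). With pat1-1path2-1 as the base, adding path1-4 gave 1.23 ± 0.14 (2.34-fold, edgeR adjusted p = 7.45e-07). The order of means was the triple combination (854 ± 3.00 CPM), pat1-1path1-4 (716 ± 19.7), pat1-1 (707 ± 147), control (553 ± 50.5), path2-1 (450 ± 84.3), path1-4 (405 ± 20.8), pat1-1path2-1 (365 ± 54.6) and path1-4path2-1 (285 ± 20.7). Only the first neighbours and the last neighbours in this order were apart.

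SAG13 and SAG21, 2 stress-responsive markers, were called higher with pat1-1 in part of the backgrounds. For neither gene did the fit of all libraries call a difference of the pat1-1 effect between backgrounds. SAG13 was at 26.7, 5.63 and 9.33 CPM in the control and 43.6, 62.8 and 71.8 in pat1-1. It was at 20.4, 11.9 and 16.7 CPM in path1-4path2-1 while the triple combination had 34.4, 29.2 and 28.4, with no overlap and a change of 0.90 ± 0.36 (1.86-fold, edgeR adjusted p = 0.0429). That call was near the threshold and was lost with DESeq2 (0.91, adjusted p = 0.0702), with gene length trends removed (0.81, edgeR adjusted p = 0.0684), without path1-4path2-1 replicate 2 (0.72, 0.147) or 3 (0.90, 0.0895) and without triple replicate 1 (0.81, 0.105), 2 (0.93, 0.0677) or 3 (0.95, 0.0621). Adding pat1-1 to path1-4 gave 0.62 ± 0.35 (edgeR adjusted p = 0.227) and to path2-1 0.03 ± 0.36 (0.955). The pat1-1 effect on SAG13 in path1-4path2-1 differed from that in path1-4 by 0.28 ± 0.50 (edgeR adjusted p = 0.768). It differed from that in path2-1 by 0.86 ± 0.51 (edgeR adjusted p = 0.191), which passed in a fit of those genotypes alone (0.86, 0.0263). The effect in path2-1 less that in path1-4 was -0.58 ± 0.51 (edgeR adjusted p = 0.48). Control replicate 1, at 26.7 CPM, lay far above the other control libraries, within the range of path1-4 and just above that of path2-1. Without it SAG13 was called higher against the control in path1-4 (1.86, edgeR adjusted p = 0.0129), path2-1 (1.51, 0.0485) and path1-4path2-1 (1.14, 0.0166), where the fit of all libraries made no such call.

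SAG21, which encodes a small late embryogenesis abundant protein of mitochondria, was called higher with pat1-1 in path1-4 and in path1-4path2-1. In CPM it was at 31.4, 17.0 and 28 in the control and 55.5, 46.8 and 64.1 in pat1-1. It was at 35.8, 44.1 and 37.7 in path1-4 and 64.3, 47.5 and 75.9 in pat1-1path1-4. It was at 29.3, 17.5 and 29.8 in path1-4path2-1 while the triple combination had 31.7, 45.8 and 45.0. No group with pat1-1 overlapped its counterpart in these pairs. The changes were 0.68 ± 0.23 (edgeR adjusted p = 0.0348) and 0.67 ± 0.23 (0.0188). The first was lost without path1-4 replicate 1 (0.61, edgeR adjusted p = 0.102) or 3 (0.66, 0.0931) or pat1-1path1-4 replicate 1 (0.66, 0.079) or 3 (0.52, 0.164). The second was lost with gene length trends removed (0.47, edgeR adjusted p = 0.0802), without path1-4path2-1 replicate 2 (0.47, 0.106) and without triple replicate 2 (0.58, 0.0714) or 3 (0.60, 0.064). Between path2-1 (43.1, 26 and 32.8 CPM) and pat1-1path2-1 (45.4, 48.3 and 46.9 CPM) the libraries were also apart. That change of 0.47 ± 0.23 was not called (edgeR adjusted p = 0.107), but was in a fit of those genotypes alone (0.46, 0.0259) and without path2-1 replicate 1 (0.68, 0.0384). The pat1-1 effect on SAG21 in path1-4path2-1 differed by -0.01 ± 0.32 from that in path1-4 and by 0.20 ± 0.32 from that in path2-1. The effect in path2-1 less that in path1-4 was -0.21 ± 0.32. None of these differences was called (edgeR adjusted p = 0.987, 0.656 and 0.708).

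SAG12, the protease gene that marks late leaf senescence, was low throughout and uneven between libraries. It had 0 to 0.376 CPM in the control, and 8.12, 3.38 and 20.7 CPM in pat1-1. In pat1-1path1-4 it was at 14.2, 2.04 and 0.133 CPM and in the triple combination at 9.49, 0.0338 and 0.0351, so 1 library in each held most of it. The same held without pat1-1, with 0.0388, 0.786 and 3.88 CPM in path1-4 and 0, 1.02 and 7.95 in path2-1. In path1-4path2-1, also without pat1-1, SAG12 was at 1.58, 2.02 and 8.37 CPM, and every library was above every control. That change of 5.02 ± 2.29 was not called (edgeR adjusted p = 0.133), but was in a fit of those genotypes alone (5.02, 0.0248). The control libraries had part in choosing the gene. The changes on adding pat1-1 were 1.77 ± 1.54 in path1-4, -1.18 ± 1.61 in path2-1 and -0.37 ± 1.35 in path1-4path2-1, none called (edgeR adjusted p = 0.443, 0.596 and 0.842), and the direction of each turned on leaving out single libraries (values below). SDs within a genotype were 83.6 to 174% of the mean.

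DIN2, a beta-glucosidase gene, had the same uneven form at higher levels. It was at 1.25, 0.466 and 1.37 CPM in the control and 26.1, 19.1 and 94.6 in pat1-1. In path1-4 it was at 0.233, 5.36 and 67.5 CPM, a range that spans all but 1 of its 24 values, and in pat1-1path1-4 at 63.2, 15.0 and 11.0. In the triple combination it was at 31.3, 2.30 and 2.35 CPM against 1.70, 0.602 and 4.47 in path1-4path2-1. No addition of pat1-1 was called for DIN2 (0.26 ± 1.10, 1.34 ± 1.36 and 2.33 ± 1.33 in path1-4, path2-1 and path1-4path2-1, with edgeR adjusted p = 0.891, 0.46 and 0.154).

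PGAZAT was close to 0 in most genotypes and high in pat1-1 and pat1-1path1-4. It had 2 counts in the 3 control libraries together and 706 in pat1-1, values that chose it. In path1-4 it was at 0, 0 and 0.0982 CPM and in pat1-1path1-4 at 24.5, 5.78 and 0.5, with 2 against 713 counts and a ratio of 274 (exact 95% counting interval 75.5 to 2260, which covers counting error only). Every pat1-1path1-4 library was above every path1-4 library, though replicate 3 was far below the others, and the test gave 8.05 ± 1.64 (edgeR adjusted p = 0.00148). PGAZAT passed the filter on low counts only through the libraries where it is high, pat1-1 and pat1-1path1-4 among them, which limits what the test adds. With no filter the value was 8.05 (edgeR adjusted p = 0.00043). It was 6.34 without pat1-1path1-4 replicate 1 (edgeR adjusted p = 0.0104), 7.32 and 7.71 without path1-4 replicates 1 and 2 (0.0096 and 0.00753), 8.63 without pat1-1path1-4 replicate 3 (0.00018) and 11.04 without path1-4 replicate 3 (0.01).

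With path2-1 also mutated, PGAZAT was at 1.01 CPM or below. The path2-1 libraries were at 0.0837, 0.0310 and 0.136 CPM and the pat1-1path2-1 libraries at 0.125, 0.203 and 0.652 CPM. The triple combination had 1.01, 0 and 0.0351 CPM, beside 0.0986, 0.0860 and 0.769 CPM for its counterpart path1-4path2-1. These 4 groups overlap, and neither addition of pat1-1 there was called (1.86 ± 2.30 and 0.01 ± 1.60, edgeR adjusted p = 0.553 and 0.998). All 3 path1-4path2-1 libraries lay above the controls, with 33 counts against the 2 of the control libraries that had part in choosing the gene, and there was no call (3.42 ± 2.70, edgeR adjusted p = 0.411). On adding path2-1 to pat1-1path1-4 the log2 fold change of PGAZAT was -4.90 ± 1.07 (29.8-fold lower, edgeR adjusted p = 0.00346). The groups overlapped, as pat1-1path1-4 replicate 3, at 0.5 CPM, lay below triple replicate 1. PGAZAT passed the filter on low counts partly through pat1-1path1-4, which limits what this test and the difference below add. Without pat1-1path1-4 replicate 1 it was -3.19 (edgeR adjusted p = 0.0451), without triple replicate 1 -8.84 (0.00299), without triple replicates 2 and 3 -4.29 and -4.36 (0.0221 and 0.0218), and with those genotypes alone it was not called (-4.89, 0.0514). The difference between the pat1-1 effects in path1-4path2-1 and path1-4 was -8.04 ± 2.67 and did not pass (edgeR adjusted p = 0.0506). It passed with DESeq2 (-8.13, adjusted p = 0.00508), with no filter on low counts (-8.06, edgeR adjusted p = 0.0381), without triple replicate 1 (-11.98, 0.0209) and without pat1-1path1-4 replicate 3 (-8.62, 0.0113).

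KTI1 was at 8.02, 3.46 and 1.52 CPM in the control and 28.2, 90 and 89.4 in pat1-1. In path1-4path2-1 it was at 7.05, 4.13 and 3.59 CPM and in the triple combination at 46.4, 9.61 and 9.30. The groups did not overlap, and the change was 2.12 ± 0.79 (4.33-fold, edgeR adjusted p = 0.0322). Without triple replicate 1 it was 0.92 and not called (edgeR adjusted p = 0.365), nor was it without path1-4path2-1 replicate 2 (2.01, 0.081) or 3 (1.92, 0.103). Between path1-4 (1.59, 2.64 and 28.2 CPM) and pat1-1path1-4 (22.4, 17.9 and 19.6 CPM) the groups overlapped through path1-4 replicate 3 alone. That change was 0.87 ± 0.77 (edgeR adjusted p = 0.453), and 3.32 without that library (0.0158). DESeq2 gave KTI1 no p-value. In path2-1 the change was 0.94 ± 0.80 (edgeR adjusted p = 0.375).

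**Figure D2:**
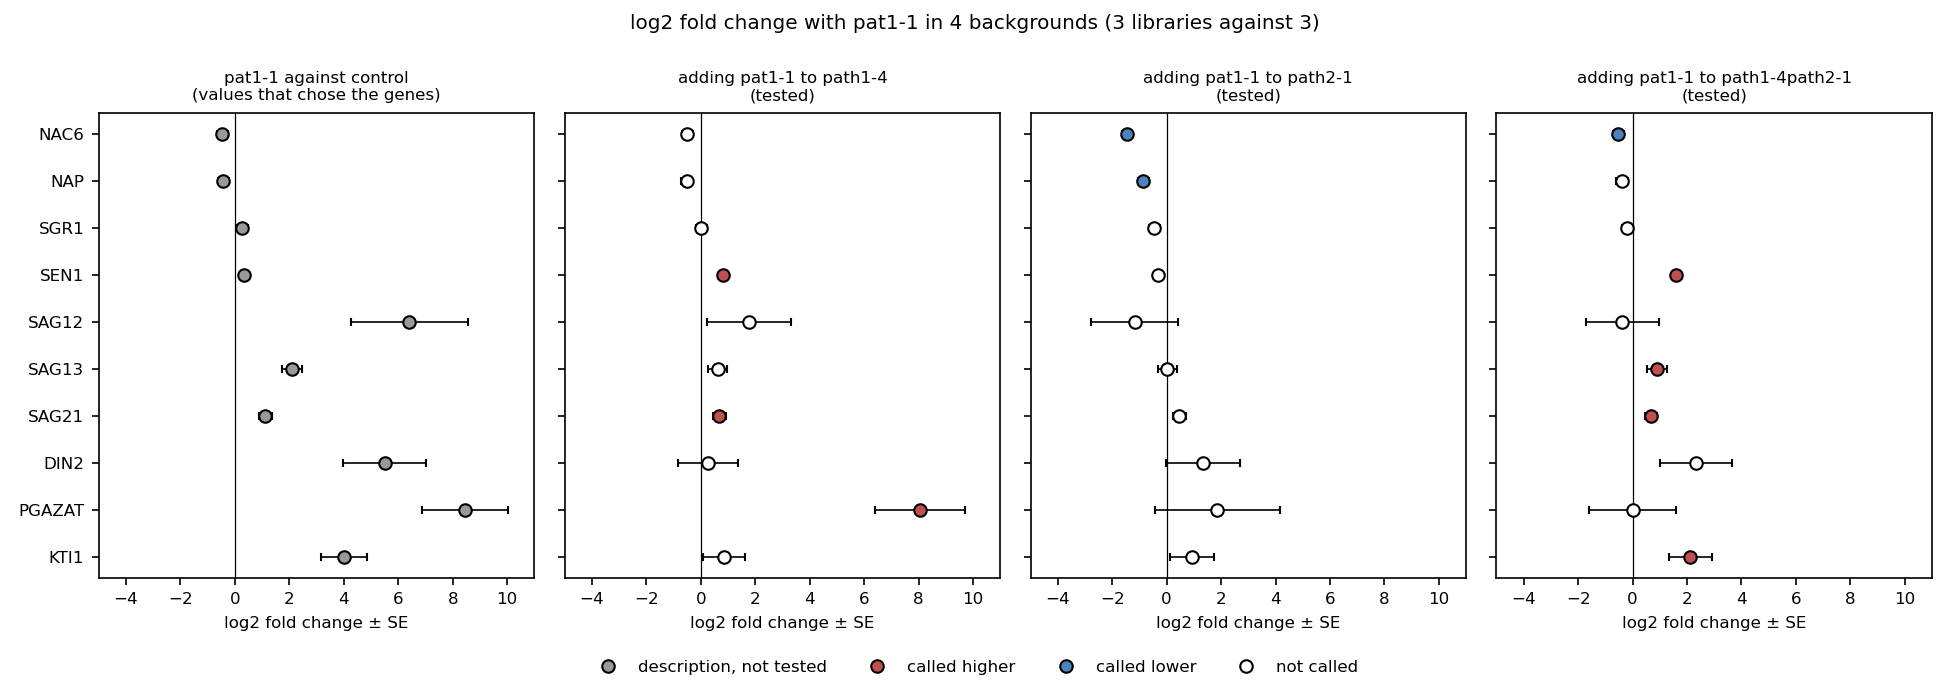
log2 fold change ± SE (horizontal axis) of the 10 genes (vertical axis) with pat1-1 in 4 backgrounds, 3 libraries against 3 in each. Grey points are the values that chose the genes, red and blue points passed the edgeR test as higher and lower, and white points did not. PGAZAT stands at 8.05 in path1-4 and 0.01 in path1-4path2-1, and NAC6 is to the left of 0 in every panel.

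Counted over the 10 genes, adding pat1-1 to path1-4 raised 3 (SEN1, SAG21, PGAZAT), lowered 0 and left 7 uncalled, where 10.8% of all 20346 genes were called higher and 11.3% lower. At an unadjusted edgeR p below 0.05 there were 5, NAC6 and NAP being lower, beside 34.6% of all genes. DESeq2 called 3 members, with 2304 of 20879 genes higher and 2122 lower. Adding it to path2-1 raised 0 and lowered 2 (NAC6, NAP), where 18.7% of all genes were called higher and 19.9% lower, and at an unadjusted edgeR p below 0.05 the count was 4, all lower (NAC6, NAP, SEN1, SGR1), beside 47.3% of all genes. DESeq2 called 2 there, with 3869 of 21966 genes higher and 3779 lower. Adding it to path1-4path2-1 raised 4 (SEN1, SAG13, SAG21, KTI1) and lowered 1 (NAC6), where 24.8% of all genes were called higher and 24.3% lower. In either direction 9992 of the 20346 genes were called, so 5 of 10 is near the share over all genes. At an unadjusted edgeR p below 0.05 the same 5 passed, beside 55.2% of all genes. DESeq2 called 3 of the 9 members to which it gave a p-value (KTI1 had none), with 4819 of 23052 genes higher and 4918 lower. Median log2 fold changes of the 10 were 0.65, -0.13 and 0.34, against -0.01, -0.01 and 0.00 over all genes. All 10 passed the filter on low counts, SAG12 and PGAZAT through the libraries in which they were high, so these counts and medians describe the 10 and are not a test of them. No gene of the 10 was called in the same direction in all 3 comparisons.

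Without pat1-1, few of the 10 genes were called. At an unadjusted p below 0.05, however, path1-4 against the control gave more of them than the share over all genes. Neither path1-4 nor path2-1 alone gave a call with edgeR, where 0.177% and 0.0197% of all genes were called. At shares this small the absence of a call among 10 genes says little about them. At an unadjusted edgeR p below 0.05 there were 5 (DIN2, NAC6, SAG13, SAG21, SEN1) and 1 (SEN1), beside 10.5% and 13.9% of all genes. DESeq2 called 0 in both, where it called 46 and 27 genes higher and 51 and 82 lower, of 21966 and 6756. At an unadjusted p below 0.05 it gave 5 and 2 members, beside 6.72% and 9.24% of all genes. In path2-1 it gave no adjusted p for DIN2, PGAZAT, SAG12 and KTI1, and SAG12 was 1 of those 2. In path1-4path2-1 against the control 0 were higher and 2 lower (NAC6, SEN1), where 9.18% of all genes were called higher and 10.3% lower. There edgeR gave 4 at an unadjusted p below 0.05, SAG12 being higher, beside 32.2% of all genes. DESeq2 called 2 members, with 1997 of 20879 genes higher and 2004 lower. These 3 comparisons share the control libraries with the one that chose the genes. Among plants with pat1-1, adding path2-1 to pat1-1path1-4 lowered 2 (NAC6, PGAZAT) and raised 0, where 8.13% of all genes were higher and 8.71% lower. SAG21 also passed at an unadjusted edgeR p below 0.05, as did 30% of all genes (-0.62 ± 0.22, adjusted p = 0.0625), and DESeq2 called it (-0.62, adjusted p = 0.0409). Adding path1-4 to pat1-1path2-1 raised 1 (SEN1) and lowered 0, where 18.1% of all genes were higher and 17.7% lower. SEN1 was the 1 member at an unadjusted p below 0.05 with edgeR and with DESeq2, as were 44.8% and 31.5% of all genes.

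Of the tests of a difference between pat1-1 effects, 1 of the 10 genes (SEN1) passed between path1-4path2-1 and path1-4, where 13.1% of all genes passed. Between path1-4path2-1 and path2-1 2 passed (SEN1, NAC6), where 38.1% of all genes did. Between path2-1 and path1-4 the same 2 passed, where 15.1% of all genes did. DESeq2 also called PGAZAT there (-6.26, adjusted p = 0.0464), which edgeR did not (-6.19 ± 4.36, adjusted p = 0.371). For NAC6 the pat1-1 effect in path2-1 was the lower one, by 0.94 ± 0.27 relative to path1-4path2-1 (edgeR adjusted p = 0.00953) and by a difference of -0.96 ± 0.27 relative to path1-4 (0.02). The last was lost without path1-4 replicate 1 (-0.82, edgeR adjusted p = 0.0605), path2-1 replicate 3 (-0.75, 0.0731), pat1-1path1-4 replicate 1 (-0.86, 0.0562) or pat1-1path2-1 replicate 2 (-0.85, 0.0589).

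Levels per transcript length, as deposited TPM, separated the 10 by orders of magnitude. SEN1 was the most abundant, with genotype means of 346 ± 32.2 to 1010 ± 31.9 TPM. NAP was at 83.0 ± 8.66 to 164 ± 29.4 TPM and NAC6 at 25.9 ± 4.58 to 81 ± 14.9 TPM. PGAZAT had genotype means of 0.0220 ± 0.0191 TPM in the control to 9.49 ± 6.62 TPM in pat1-1.

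Within a genotype, 1 library often carried the highest value of most of the 10 genes. It was pat1-1path2-1 replicate 3 for 9 genes, pat1-1 replicate 3, path1-4 replicate 3 and the triple combination replicate 1 for 8 each, and pat1-1path1-4 replicate 1 and control replicate 1 for 7 each. In path1-4path2-1 it was replicate 3 for 6 genes, while in path2-1 replicates 1 and 3 had 5 each. The like shares over all genes were not computed, for these counts or for the correlations that follow. Libraries of 1 genotype also differed over all genes, with a mean chi-square per gene of 5.67 to 38.7. Whether this spread is particular to the 10 genes was not tested. Taking each library as its deviation from the mean of its genotype (n = 24, with 3 libraries sharing each mean), NAP and SGR1 deviated together at r = 0.94 (rho = 0.91), NAC6 and NAP at 0.89 (rho = 0.83) and NAC6 and SGR1 at 0.87 (rho = 0.85). The transcription factors and the chlorophyll gene thus varied together between libraries of 1 genotype. SAG12 and PGAZAT were at r = 0.76 (rho = 0.77) and DIN2 and KTI1 at r = 0.75 (rho = 0.62). Of the 45 pairs 24 were above 0.5 and 6 below 0. SEN1 stood aside from NAC6 and NAP, at r = 0.00 (rho = -0.02) and 0.07 (rho = 0.10).

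**Figure D3:**
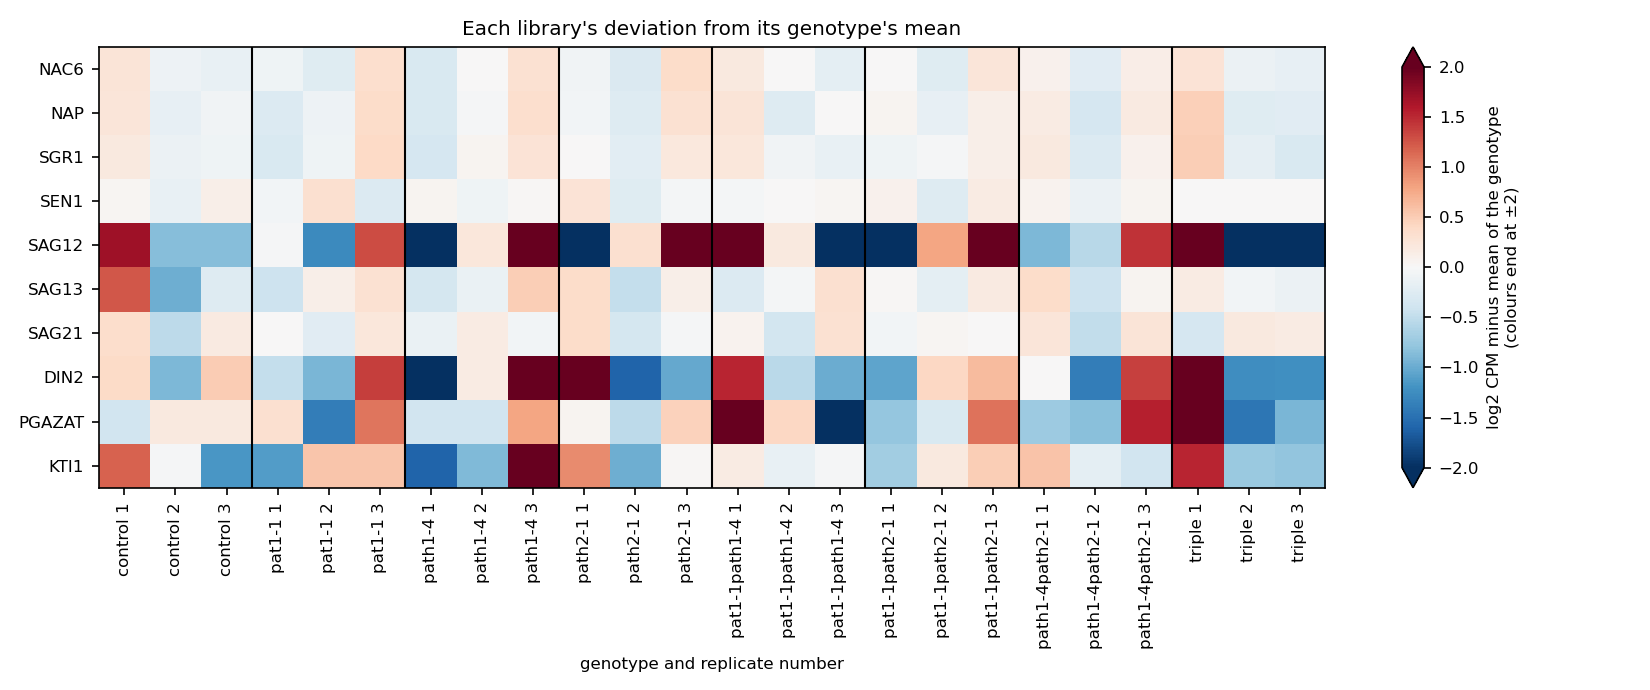
Deviation of each library's log2 CPM from the mean of its genotype (colour, red above and blue below, ending at 2), for the 10 genes (rows) in 24 libraries (columns, grouped by genotype). In the triple combination replicate 1 holds the highest value of 8 of the 10 genes, and in pat1-1path2-1 replicate 3 holds that of 9. The shares over all genes were not computed.

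The 2 genes most like each member over the 24 libraries, outside the 10, were found by Pearson correlation of log2 CPM. They are given as a description, since genes share the genotypes and libraries. For SEN1 they were DIN4 (r = 0.961, rho = 0.971), a subunit of the dehydrogenase complex of branched-chain amino acid breakdown, and MCCA (r = 0.953, rho = 0.949), a subunit of methylcrotonyl-CoA carboxylase in leucine breakdown. For NAC6 they were the karrikin receptor gene KAI2 (r = 0.955, rho = 0.951) and the abscisic acid kinase gene SNRK2.3 (r = 0.949, rho = 0.954). For NAP they were AT1G64360 (r = 0.945, rho = 0.943) and FD, a bZIP factor of flowering (r = 0.926, rho = 0.921). For SGR1 they were the chlorophyll b reductase gene NYC1 (r = 0.911, rho = 0.918) and AT3G62590 (r = 0.884, rho = 0.930).

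The stress and cell wall genes had neighbours of other kinds. SAG13 was most like AT3G18250 (r = 0.939, rho = 0.907) and the alternative oxidase gene AOX1D (r = 0.911, rho = 0.837). SAG21 was most like AT1G23840 (r = 0.946, rho = 0.928) and the flotillin gene FLOT1 (r = 0.919, rho = 0.919). PGAZAT was most like NCED2 (r = 0.870, rho = 0.738), an enzyme of abscisic acid synthesis, and CKX2 (r = 0.851, rho = 0.921), a cytokinin oxidase. DIN2 was most like CYP76C2 (r = 0.922, rho = 0.951) and AT1G30700 (r = 0.904, rho = 0.908), and KTI1 most like NAC047 (r = 0.902, rho = 0.847) and the dioxygenase gene DOX1 (r = 0.902, rho = 0.877). SAG12, which is near 0 in many libraries, had the weakest neighbours, AT5G46950 (r = 0.778, rho = 0.794) and PAP20 (r = 0.732, rho = 0.766).

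Of the wider senescence program, 8 lists with 90 genes were examined in the 3 comparisons that add pat1-1 (to path1-4, path2-1 and path1-4path2-1, in that order). Of 20 other senescence and dark-induced genes 7, 3 and 6 rose and 1, 3 and 3 fell, with list medians of 0.21, -0.02 and 0.28 beside the all-gene medians above. DIN4, named above because its levels are like those of SEN1, was at 0.79 ± 0.09, -0.20 ± 0.09 and 1.62 ± 0.09 (edgeR adjusted p = 7.33e-06, 0.0913 and 3.85e-11). DIN6, an asparagine synthetase gene, was at 0.96 ± 0.26, -0.26 ± 0.25 and 1.62 ± 0.26 (edgeR adjusted p = 0.0103, 0.441 and 3.15e-05). DIN6 was named after its values were seen, and no difference between backgrounds was tested for either. SAG2, an aleurain-like protease gene, was the only gene of the list called the same way in all 3, and it fell (-0.34 ± 0.12, -0.71 ± 0.12 and -0.53 ± 0.12, edgeR adjusted p = 0.0488, 0.000119 and 0.001).

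Of 19 senescence transcription factor genes 2, 3 and 2 rose and 4, 5 and 6 fell, with medians of -0.01, -0.04 and -0.14. The NAC gene ORS1, the closest copy of NAC6 in this genome, fell in all 3 (-0.84 ± 0.12, -1.24 ± 0.12 and -1.37 ± 0.12, edgeR adjusted p = 4.35e-05, 2.46e-07 and 1.47e-08). Of 10 chlorophyll breakdown genes 1, 3 and 1 rose and 1, 3 and 3 fell (medians 0.00, -0.22 and -0.02), and none was called 1 way in all 3. Of 7 vacuolar protease genes 0, 0 and 2 rose and 1, 3 and 4 fell (medians -0.15, -0.34 and -0.43). Of 12 autophagy genes 2, 0 and 6 rose and 0, 3 and 0 fell (medians 0.14, -0.12 and 0.22), a split between backgrounds whose difference was not tested for the list.

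Of 8 salicylic acid defence genes 1, 4 and 4 rose and 0 fell in any, with medians of 0.53, 0.93 and 0.88. EDS1, a lipase-like hub of immune signalling, rose in all 3 (0.61 ± 0.20, 1.32 ± 0.20 and 0.72 ± 0.20, edgeR adjusted p = 0.0338, 4.61e-05 and 0.00476). Of 8 abscission and cell separation genes 6 were tested, with 1, 1 and 1 higher, 0, 1 and 1 lower and medians of -0.10, 0.18 and 0.02. Of 6 other Kunitz inhibitor genes 3 were tested, with 0 higher in each comparison, 0, 1 and 0 lower and medians of 0.42, -0.16 and 0.91. The shares of all genes called in these comparisons, 10.8 to 24.8% higher and 11.3 to 24.3% lower, stand beside every one of these counts.

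**Figure D4:**
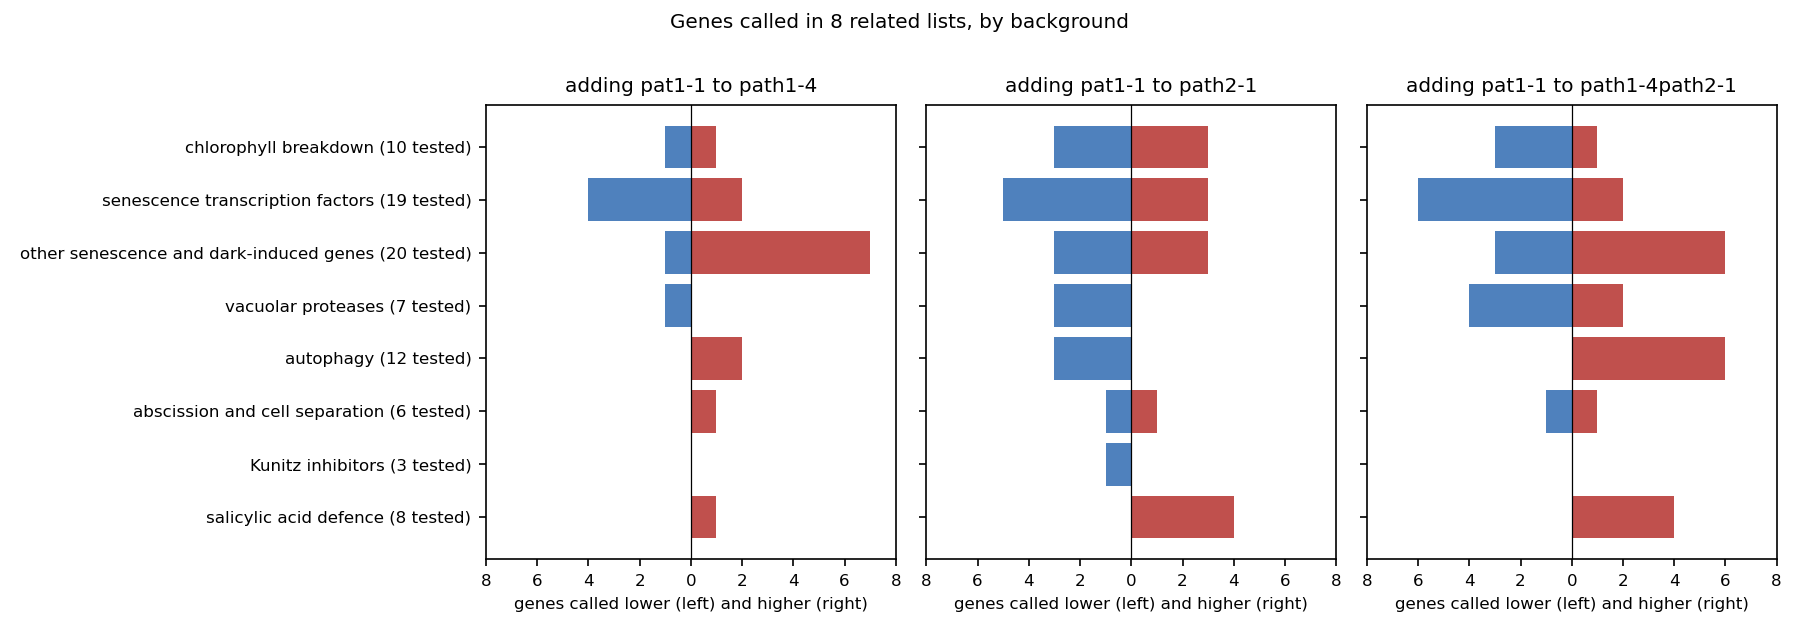
Genes called higher (red, right) and lower (blue, left) in 8 lists related to the 10 genes, on adding pat1-1 to path1-4, path2-1 or path1-4path2-1. The horizontal axis counts genes with an edgeR adjusted p below 0.05, and the number tested stands beside each list. Autophagy has 2 and 6 higher in path1-4 and path1-4path2-1 and 3 lower in path2-1.

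Root markers were higher with pat1-1 as well, and floral organ markers in part of the genotypes that carry it. The summed level of 4 root markers was 143 to 276 CPM in the 12 libraries with pat1-1 and 43.2 to 98.8 in the 12 without, and on adding pat1-1 3, 1 and 4 of the 4 were called higher (PYK10, NAI2, PER72 and AT1G12080, the last in all 3). The 6 floral organ markers summed to 0.88 to 4.45 CPM with pat1-1 and 0.589 to 1.96 without. The pat1-1 (3.52 to 4.45 CPM) and pat1-1path1-4 (2.37 to 3.98 CPM) libraries were the highest, and PGAZAT was high in those genotypes. On this sum the pat1-1path2-1 (1.06 to 1.35 CPM) and triple combination (0.88 to 1.31 CPM) libraries lay below the control (1.44 to 1.63 CPM). LFY had no count in 18 of the 24 libraries and AP1 in 17, and 2 of the 6, AG and PI, were high enough to be tested. On adding pat1-1 2, 0 and 1 of these 2 were higher and 0, 1 and 1 lower. In path1-4path2-1 they went opposite ways, AG by -1.07 ± 0.36 (edgeR adjusted p = 0.0186) and PI by 2.63 ± 0.57 (0.00067). Mean AG was 1.38 CPM in the control and 0.335 in the triple combination. Mean PI was 0.0826 CPM in the control and 0.533 in the triple combination, its highest. The sum therefore does not stand for each marker. Green tissue markers summed to 46900 to 55200 CPM with pat1-1 and 30200 to 48100 without, RBCS1A being the most abundant of the 5. On adding pat1-1 0, 2 and 1 of the 5 were called higher and 0, 0 and 1 lower. The lower one was LHCB3 in path1-4path2-1 (-0.73 ± 0.11, edgeR adjusted p = 1.13e-05). Of all genes 10.8 to 24.8% were called higher and 11.3 to 24.3% lower in these comparisons, beside all 3 sets of marker counts. The part of these markers in the changes of the 10 genes was not tested.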

How the data were processed

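RNA from above-ground tissue of 24 plants or pools (the labels do not say which) was sequenced on a BGISEQ-500, per the labels. Reads were aligned with STAR 2.5.1b to TAIR10, per the submitters' processing notes. No source used here names the counter, its annotation or its strand handling. The authors deposited whole-number counts per gene, used for every test, and TPM, used for levels per length. Their ratio was constant within 0.1% for each of 28486 genes with counts.

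Counts were fitted with edgeR 4.0.16 in R 4.3.3 (TMM scaling, filterByExpr, 1 term per genotype, all 24 libraries, quasi-likelihood F test, two-sided). Of 37336 genes 20346 were tested, with Benjamini-Hochberg adjustment over them in each of 11 contrasts, and the SE is the log2 fold change over the root of F. The biological coefficient of variation was 10.9%. The tested differences of pat1-1 effect are contrasts of the same fit. The 10 genes and the lists were chosen with earlier results of these data known. List genes were named where called in 1 direction in all 3 additions of pat1-1, and genes most like a member as the 2 with the highest correlation of log2 CPM (prior count 2). Of the list genes 2 were left out because neither the deposited table nor RefSeq gives their names. The addition of pat1-1 to path1-4path2-1 and the contrasts that add path1-4 or path2-1 share the triple combination libraries.

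Alternatives were DESeq2 1.42.0, RLE size factors, no filter, only the compared genotypes, removal of each library's trend with gene length, and leaving out each library in turn. Over 24 replicate pairs the mean chi-square per gene was 5.67 to 38.7 for genes with a summed count of at least 50, so no library repeated another of its genotype. Copies were sought with blastn 2.17.0. The fit was tested on simulated data. Counting intervals are exact at 95%. In parentheses, an adjusted p after a comma belongs to the value before it, from the same tool.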

Additional observations from a re-analysis of the deposited data

Results flagged for a closer look

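The effect of pat1-1 on SEN1 and on NAC6 differed between backgrounds by a test of the difference itself. For SEN1, a dark-induced gene, it was larger in path1-4path2-1 than in path1-4 by 0.76 ± 0.19 on the log2 scale (SE, edgeR adjusted p = 0.0113) and larger than in path2-1 by 1.88 ± 0.19 (edgeR adjusted p = 2.43e-07). In path2-1 less in path1-4 the SEN1 difference was -1.12 ± 0.19 (edgeR adjusted p = 0.000613). For the senescence regulator NAC6 the difference was 0.94 ± 0.27 between path1-4path2-1 and path2-1 (edgeR adjusted p = 0.00953) and -0.96 ± 0.27 between path2-1 and path1-4 (edgeR adjusted p = 0.02). The last call held in 8 of 12 fits with 1 library left out. Of all genes, 13.1% passed between path1-4path2-1 and path1-4, 38.1% between path1-4path2-1 and path2-1, and 15.1% between path2-1 and path1-4. Each background has 3 libraries with and 3 without pat1-1.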

How the results depend on the processing

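No paired analysis was possible because the labels number the libraries through the whole series and give no replicate number shared between genotypes. With only the compared genotypes in the fit, adding pat1-1 to path2-1 called 4 of the 10 genes in place of 2. There 3811 of all 19394 genes were called higher and 3982 lower. In the same setting adding path1-4 to pat1-1path2-1 called 2 in place of 1, with 3885 of 19548 genes higher and 3849 lower. Adding pat1-1 to path1-4path2-1 called 3 with the gene length trend removed and 3 with DESeq2, in place of 5. DESeq2 gave KTI1 no p-value, so of the 5 only SAG13 was tested there and not called. Over all genes these settings called 4798 higher and 4889 lower of 20346, and 4819 higher and 4918 lower of 23052. The difference of pat1-1 effects between path1-4path2-1 and path1-4 called 2 in place of 1 with RLE size factors, with no filter and with DESeq2. In that order 1265, 1051 and 1322 genes were called higher and 1418, 1175 and 1522 lower, of 20346, 28486 and 20336. Leaving out 1 library at a time, the genes called were 2 to 4, 2 to 3 and 2 to 5 on adding pat1-1 to path1-4, path2-1 and path1-4path2-1. Of 20526 to 20568 genes tested in these fits, 1626 to 1993, 2944 to 3472 and 4280 to 4728 were called higher. Lower were 1556 to 2258, 3008 to 3778 and 4245 to 4685. Among the 10, calls were 0 to 1, 0 to 1 and 2 to 3 for path1-4, path2-1 and path1-4path2-1 against the control. They were 1 to 2 on adding path2-1, 1 on adding path1-4, and 1 to 2, 2 and 1 to 2 for the differences. The shares of all genes called for these in the fit of all libraries are given above. Signs turned for uncalled values, where the cause was not tested. On adding pat1-1 to path1-4 these were SGR1 (-0.15 to 0.18), SAG12 (-0.57 to 4.05) and DIN2 (-0.92 to 3.69). On adding it to path2-1 they were SAG12 (-2.58 to 1.15) and SAG13 (-0.17 to 0.23). On adding it to path1-4path2-1 they were SAG12 (-6.68 to 0.82), DIN2 (-0.02 to 3.24) and PGAZAT (-3.93 to 1.78, and -0.01 with no filter or the length trend removed). PGAZAT was filtered out of the fit of path2-1 and pat1-1path2-1 alone. SEN1 kept each of its calls in every alternative. Over all genes, calls on adding pat1-1 to path1-4 fell from 4487 to 2558 with only those genotypes. The path1-4 calls of 36 became 97 with DESeq2, 7 with only those genotypes and 16 to 113 with 1 library left out, and the path2-1 calls of 4 became 109, 1 and 2 to 42. Calls of path1-4path2-1 against the control went from 3958 to 2448 without its replicate 3, and of the path2-1 to path1-4 difference from 3078 to 2040 without pat1-1path2-1 replicate 1. Levels of SAG12 and PGAZAT rest on few counts in most libraries, which limits their direction.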
